A study of Homo sapiens with 3 samples.

Results

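The baseline transcriptome of siControl cells, which are Cal62 thyroid cancer cells given a control siRNA, was described from 2 of the 6 libraries in the deposited gene table. Cal62 is an established human line derived from an anaplastic thyroid carcinoma, the least differentiated form of thyroid cancer. The cells were grown in DMEM with fetal bovine serum and received a Silencer Select negative control siRNA in Lipofectamine RNAimax, so every value below is that of transfected and not of untouched cells. The other 4 libraries are of cells given siRNAs against ADAR1 and were not used. The labels list 1 siControl sample, and the 2 siControl columns were taken as the biologically independent replicates that the study's methods describe. With 1 group there is no second condition to test against, so levels are given per replicate, with no p-value. The time between transfection and harvest of the sequenced RNA was not given in the sources used here. Beyond the 4 highest members and those at the floor of each list, the genes named for a list were chosen after their values were seen.

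The thyroid follicular cell makes hormone by taking up iodide and coupling it to thyroglobulin at its apical membrane, under control of the thyrotropin receptor. That program is set by a small group of transcription factors, PAX8, NKX2-1, FOXE1 and HHEX, whose joint presence marks the lineage. In anaplastic carcinoma the hormone genes are usually lost while RAS and MAPK signaling, cell cycling and a mesenchymal shape are gained.

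Poly(A)+ RNA was read to 49173897 reads on genes in replicate 1 and 46219651 in replicate 2. Levels are given as TPM (transcripts scaled to a fixed sum per library), computed from whole counts recovered from the deposited log2 values and from merged exon length, so that genes of different length can be compared. These counts are either reads counted on genes or rounded Salmon estimates, which cannot be told apart here, and they are called reads throughout. Merged exon length joins the exons of all annotated transcripts of a gene, so it can exceed the length of the message made. It was 10063 bases for EEF1A1 and 461 for TMSB10, and ranks by TPM depend on it. A gene was called expressed at 1 TPM or more in both replicates and at the floor with at most 3 reads in each. Of 19751 protein-coding genes, 11526 were expressed, which is 58.4% and the background for every list below. Another 4070 genes (20.6%) were at the floor, and 2661 of those (13.5% of all) had no read in either library. In the remaining 4155 genes reads were seen at less than 1 TPM in at least 1 replicate. A count of 3 reads is the limit that a count of 0 allows. As a share of all reads it was 0.0610 per 1000000 in replicate 1 and 0.0649 in replicate 2. The median protein-coding gene stood at 4.62 TPM.

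The messages in greatest amount were those for mitochondrial respiration, translation, the cytoskeleton and glycolysis. The 13 proteins coded by mitochondrial DNA took 4.46% of reads in replicate 1 and 3.46% in replicate 2, led by MT-CO1, a cytochrome oxidase subunit, with 516998 and 375307 reads. All 13 were lower in replicate 2 relative to the median gene, and 1 of them by more than 1.5-fold. Among nuclear genes the highest was TMSB10, an actin-binding thymosin, at 6923 TPM in replicate 1 and 7829 TPM in replicate 2. It was followed by MT2A, a metal-binding metallothionein, at 6319 and 7522 TPM. HMGA1, an architectural chromatin protein of embryonic and cancer cells, came next at 5216 and 5341 TPM. The ranges of TMSB10 and MT2A overlapped, though TMSB10 was the higher within each replicate, whereas both replicates of HMGA1 were under those of MT2A. RPL41, EEF1A1 and GAPDH, which encode a ribosomal protein, a translation elongation factor and a glycolytic enzyme, had means of 4607, 4544 and 4371 TPM. ACTB, the cytoplasmic beta-actin, had 3818 and 4102 TPM.

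PLAU, a gene for a secreted protein, was among these leading genes. It encodes urokinase, the protease that activates plasminogen, and held 2859 and 3019 TPM, in the eighth place of nuclear protein-coding genes. Its receptor PLAUR had 73.2 and 81.1 TPM. Of the exon bases of PLAU, 31.03% are also exon of a gene on the other strand, and the strand setting is not known, so part of its reads may belong to that gene. The chaperones HSP90AA1 and HSP90AB1 had 2586 and 2519 TPM in mean and overlapped in range. Within replicate 1 they were nearly equal (2266 and 2265 TPM), and within replicate 2 HSP90AA1 was the higher (2905 and 2773 TPM). Of the 100 highest nuclear protein-coding genes, 33 encode cytosolic ribosomal proteins, 10 encode actin, tubulin and their partners, 7 belong to glycolysis and 6 are elongation or initiation factors. The 36 that fall in none of the groups examined include FTL and FTH1 for ferritin, the lipolysis inhibitor G0S2, the transglutaminase TGM2, the AP-1 subunit FOSL1 and the matrix-associated CCN1 and FN1. EEF1G, at 1930.1 and 2098 TPM, shares 99.7% of its exon bases with another gene of the same strand, so its level is uncertain. Over all genes, 202 held 50% of TPM in replicate 1 and 406 in replicate 2, and the 10 highest held 23.3% and 15.0%. Among nuclear protein-coding genes alone, 750 and 788 held 50% of their TPM.

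By reads alone the order was led by a transcript that is not a messenger RNA. The lncRNA ENSG00000280800 had 937193 reads in replicate 1 and 329413 in replicate 2. It lies at chr21:8210384-8211306 (GRCh38, minus strand), inside the ribosomal RNA gene RNA18SN2 on the other strand, and 100% of its sequence matched that ribosomal RNA unit. Next among genes with most reads came EEF1A1, MT-CO1, MT-ND4, ACTB and the mitochondrial ribosomal RNA MT-RNR2, then MT-CO3, HSP90AA1, AHNAK and HMGA1. A further lncRNA, ENSG00000283907 at chr19:35557928-35581960, had 191046 and 38108 reads, and 46.8% of its longest transcript matched the ribosomal unit at 95.6% identity. Together these 2 lncRNAs took 2.29% of reads in replicate 1 and 0.795% in replicate 2. On the TPM scale their share was 9.56% and 3.51%, which lowers the TPM of all other genes in replicate 1. The next lncRNAs were ENSG00000265401 at chr17:16382152-16382669 (1574 and 1793 TPM), ENSG00000258232 at chr12:49265156-49273306 (575 and 825 TPM) and MALAT1, a nuclear speckle RNA, at 416 and 478 TPM. NORAD (311 and 379 TPM) and UCA1 (138 and 252 TPM) were lower. ENSG00000265401 lies within UBB, a gene on the other strand with 1179 and 1339 TPM. Since the strand setting is not known, some or all of the reads of ENSG00000265401 may belong to UBB. Of 14655 lncRNAs, 1935 (13.2%) were expressed and 5616 had no read.

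**Figure D1:**
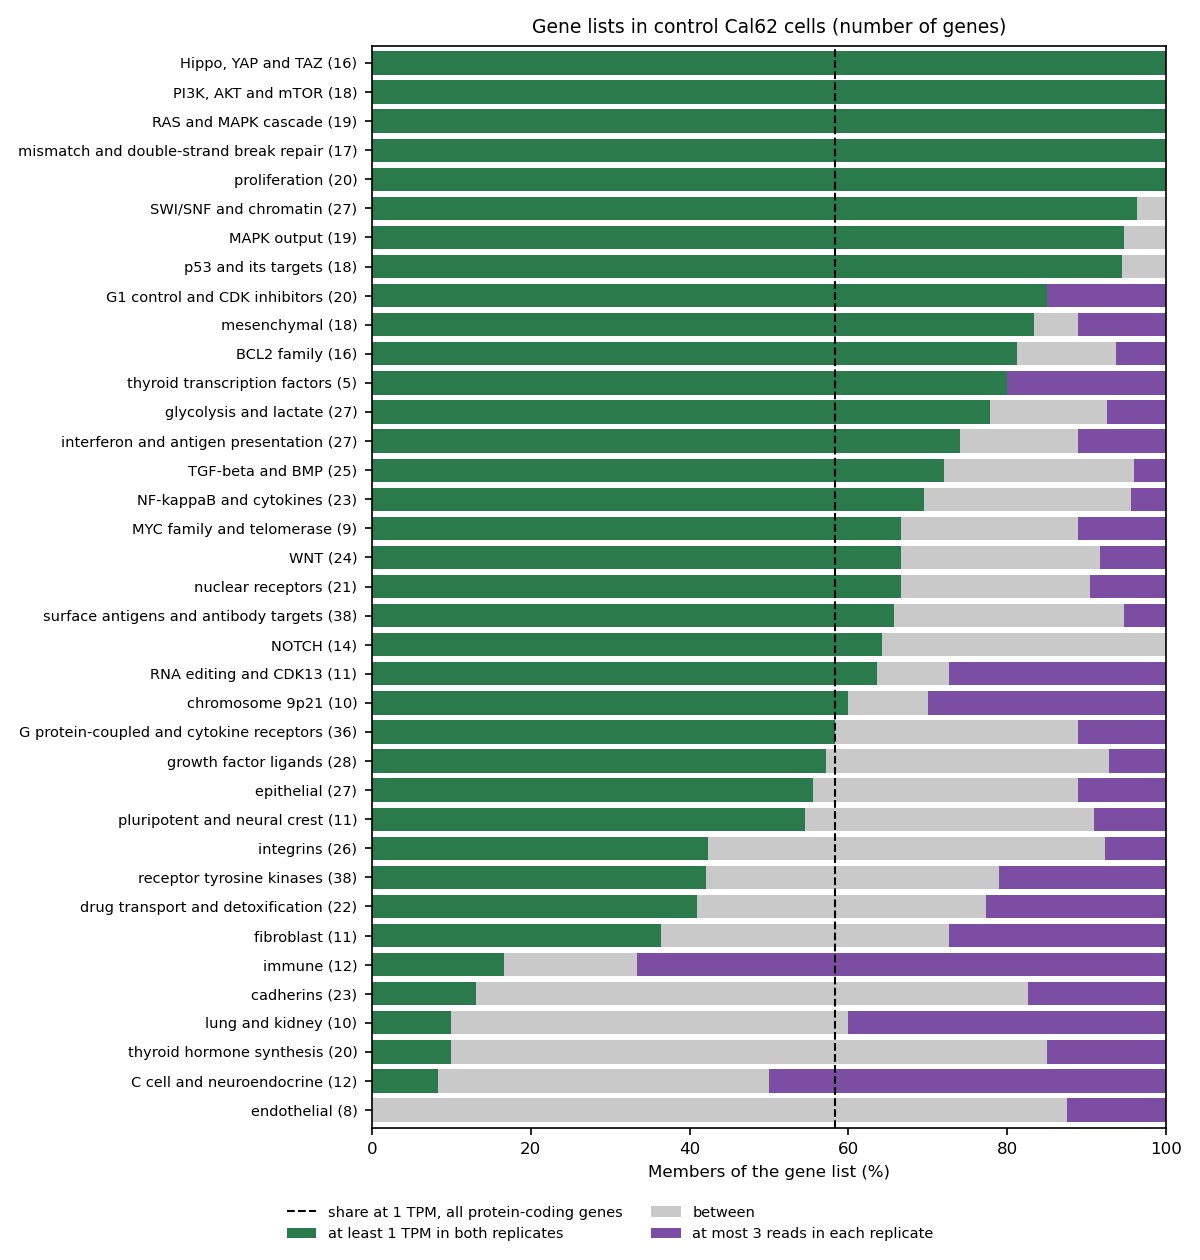
Share of the members of each gene list, in percent, that were at 1 TPM or more in both siControl replicates (green), at most 3 reads in each (purple) or between (grey), with the number of genes in brackets. The dashed line is the 58.4% of all protein-coding genes, and the thyroid hormone synthesis, neuroendocrine and endothelial lists lie far to its left.

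Of the 4 factors that mark the thyroid lineage, PAX8, HHEX and FOXE1 were expressed and NKX2-1 was not, and few of the hormone genes reached 1 TPM. PAX8, the paired-box factor that drives thyroid gene expression, had 12789 reads in replicate 1 and 15557 in replicate 2, or 120 and 173 TPM (146.6 ± 37.0 TPM, SD, n = 2). HHEX, a homeobox factor of the early thyroid bud, had 50.4 and 64.6 TPM. FOXE1, the forkhead factor of thyroid migration and hormone genes, was lower at 4.55 and 3.47 TPM, and NKX2-5 had 6.37 and 6.43 TPM. NKX2-1, also known as thyroid transcription factor 1, had 0 reads in both libraries. With NKX2-5, which acts in the early thyroid and heart, 4 of the 5 factors on the list were expressed. Their ranges did not overlap, with PAX8 the highest, then HHEX, NKX2-5 and FOXE1.

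The 30 bases before the RefSeq start of these genes (GRCh38.p14, bases -30 to -1, 5′ to 3′ on the strand of the gene, CpG in capitals) are shown because NKX2-1, without a read, has CpG at its start just as the expressed factors do.
PAX8 at chr2:113278922-113278951, minus strand: gataaaacCGgtCGgtgatgcCGggtggat
HHEX at chr10:92689925-92689954, plus strand: gataaatgtagCGcCGCGgCGCGggccagc
FOXE1 at chr9:97853196-97853225, plus strand: cctttaaggaggggaagcCGgCGgagggag
NKX2-1 at chr14:36520233-36520262, minus strand: gtgtccctctgaCGgCGgcagaagagaggc
TSHR at chr14:80955591-80955620, plus strand: ggtctcctttggcctggggtaaccCGaggt
Over the whole 300-base window, from 250 bases before to 50 after the start, PAX8 had 13 CpG, HHEX 44, FOXE1 32, NKX2-1 21 and TSHR 10.

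Of 20 genes for hormone synthesis and action, 2 were expressed, which is 10.0% against the 58.4% of all protein-coding genes. One of these was THRA, a thyroid hormone receptor of many tissues, at 7.92 and 9.61 TPM. GLIS3, a zinc finger factor of thyroid development, lay across the threshold at 1.27 and 0.667 TPM. TSHR, the thyrotropin receptor, had 65 and 72 reads, or 0.455 and 0.595 TPM. SLC5A5, the sodium-iodide symporter, had 8 and 7 reads, and SLC26A4, which carries iodide across the apical membrane, had 16 and 15 reads. The peroxide generators DUOX1 and DUOX2 had 16 and 18 reads and 5 and 9 reads. DUOXA1, a maturation factor of DUOX1, had 2 and 6 reads. IYD, which recovers iodide, had 15 and 10 reads, the deiodinase DIO1 had 2 and 9 reads, and the receptor THRB had 28 and 27 reads. From TSHR on, every gene named here was under 1 TPM in both libraries.

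TG, the thyroglobulin precursor of the hormone, had 31 reads in replicate 1 and 0 in replicate 2. DIO2 had 25 and 4 reads, ID4 had 6 and 1 reads, and CDH16, a kidney and thyroid cadherin, had 4 and 0 reads. These 4 genes had fewer reads in replicate 2, though for ID4 and CDH16 the counts are too small to show a difference at this depth. DUOXA2 and TFF3 had no read and SLC5A8 had 0 and 1 read. Thus 3 of 20 members were at the floor, a share no higher than the 20.6% of all genes. Another 15 members lay above the floor without being expressed. Of 12 genes of the thyroid C cell and of neuroendocrine cells 6 were at the floor, against 20.6% of all genes, and 5 lay above it without being expressed. CALCA, the calcitonin gene, CHGA and INSM1 had no read, and SCG2 and SCG3 had at most 2 in a library. ENO2, a glycolytic enzyme used as a neuroendocrine marker, was the 1 expressed gene on that list, at 21.2 and 40.9 TPM.

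Some epithelial and some mesenchymal genes were both high. Of 27 epithelial genes 15 were expressed (55.6%, near the 58.4% of all genes), and of 18 mesenchymal genes 15 were (83.3%). The simple-epithelium keratins led the former: KRT7 had 1392 and 1161 TPM, KRT18 had 1012 and 1011 TPM, and KRT8 had 362 and 359 TPM. DSP, the desmosome protein desmoplakin, had 91.3 and 115 TPM. EPCAM, an epithelial adhesion molecule, had 50.6 and 55.5 TPM, and the splicing factor ESRP2 had 20.3 and 23.1 TPM. CDH1, which encodes E-cadherin, had 193 reads in replicate 1 and 39 in replicate 2 (2.21 and 0.525 TPM). The basal keratin KRT14 had no read, and CRB3 and OVOL1 were at the floor. KRT5, KRT20, TJP3, GRHL2, RAB25, ESRP1 and ITGB4 lay above the floor and under 1 TPM in both replicates.

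On the mesenchymal side VIM, the intermediate filament vimentin, had 1297 and 1442 TPM, a range that overlaps that of KRT7. FN1, the matrix protein fibronectin, had 585 and 856 TPM, and SPARC, a matrix glycoprotein, had 337 and 219 TPM. CDH2, which encodes N-cadherin, had 50.8 and 48.2 TPM, above both values of CDH1. The epithelial repressors were expressed at modest levels, with TWIST2 at 34.1 and 48.9 TPM, ZEB1 at 20.99 and 27.0 TPM and SNAI1 at 7.25 and 7.73 TPM. CDH11 and POSTN, a cadherin and a matrix protein of mesenchyme, had no read.

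**Figure D2:**
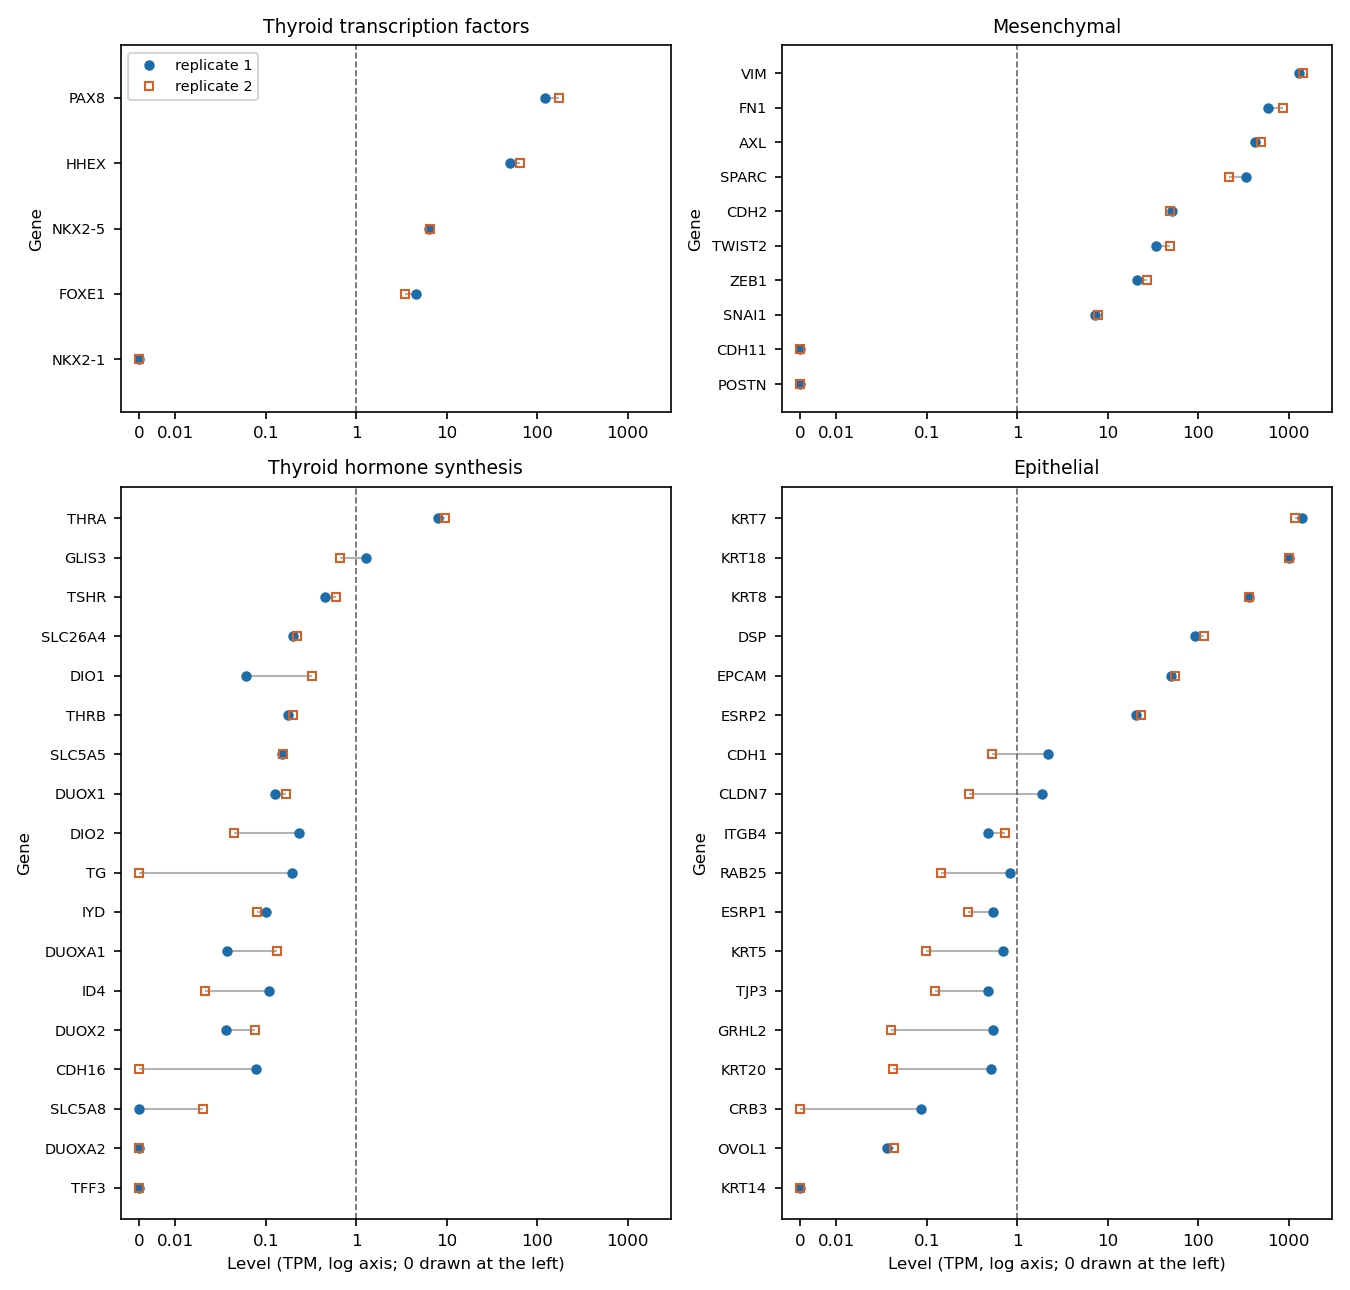
Level in TPM (log axis, 0 drawn at the left) of the thyroid transcription factors, thyroid hormone genes, epithelial genes and mesenchymal genes named in the text, in siControl replicate 1 (filled circles) and replicate 2 (open squares), with a dashed line at 1 TPM. PAX8 and HHEX lie above 50 TPM while NKX2-1 is at 0, and most of the low epithelial genes, such as CDH1 and GRHL2, lie further left in replicate 2.

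Most endothelial, immune, and lung and kidney genes were under 1 TPM. A few genes were high on the fibroblast list and on the joint list of neural crest and pluripotent cells. In bulk RNA, fewer cells of a type and less RNA per cell cannot be told apart. Of 8 endothelial genes 0 were expressed, against 58.4% of all genes, with summed levels of 1.31 and 1.27 TPM. VWF, the endothelial clotting factor, had 22 and 1 reads. Of 12 immune genes 8 were at the floor, against 20.6% of all genes, and the pan-leukocyte gene PTPRC had 3 reads in each library. CD68, a lysosomal protein of macrophages, was expressed at 7.22 and 15.5 TPM but shares 81.6% of its exon bases with another gene of the same strand. CD14 was the other expressed gene on this list, at 1.73 and 1.69 TPM. Of 11 fibroblast genes 4 were expressed (36.4%). PDPN, the membrane mucin podoplanin, had 210 and 221 TPM and COL1A1, a chain of type I collagen, had 48.5 and 49.4 TPM. COL3A1 had no read, and PDGFRA, PDGFRB, DCN and LUM had at most 6 reads in a library. Of 10 lung and kidney genes only LHX1 was expressed, at 2.19 and 3.22 TPM, whereas SCGB1A1, SFTPA1 and UMOD had no read. Of 11 genes of neural crest and pluripotent cells 6 were expressed (54.5%, near the 58.4% of all genes), led by SOX9 (48.1 and 39.4 TPM) and KLF4 (39.2 and 29.7 TPM), with SOX2 at 0 reads.

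Family by family, a few members stood for many. Of 55 keratins 6 were expressed (10.9%, against 58.4% of all genes) and 37 were at the floor, against 20.6% of all genes. In the HOX clusters HOXB7 (65.3 and 82.8 TPM) and HOXB9 (37.9 and 44.3 TPM) led. In HOXD the expressed genes were HOXD13 (7.85 and 11.1 TPM) and HOXD1 (6.55 TPM in each), and the other 7 of 9 were at the floor. HOXD1 shares 60.1% of its exon bases with a gene on the other strand. SOX7, a factor of endoderm and endothelium, had 122 and 142 TPM and was the highest of 19 SOX genes, although 39.4% of its exon bases are shared with another gene on the same strand. Among forkhead genes FOXM1, which drives mitotic genes, had 168 and 223 TPM and FOXD1 had 92.9 and 110 TPM, whereas FOXA2 and FOXA3 were at the floor. Among 9 PAX genes PAX8 was the highest and PAX6, a factor of eye and pancreas, was next at 7.81 and 7.22 TPM.

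Every member of the RAS and MAPK cascade list was expressed (19 of 19, against 58.4% of all genes, median 44.97 TPM). SHC1 and GRB2, adaptors between receptors and RAS, had 137 and 133 TPM and 59.4 and 76.5 TPM. Of the RAS genes, NRAS had 51.5 and 70.2 TPM and HRAS had 39.2 and 50.7 TPM, so that their ranges did not overlap. BRAF, a kinase that RAS activates, had 8.84 and 9.40 TPM. Mutations were not examined, so nothing here says which alleles were expressed.

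Genes that report on this cascade were expressed in 18 of 19 cases (94.7%, against 58.4% of all genes), with a median of 74.5 TPM over the list. FOSL1, an AP-1 subunit, had 719 and 915 TPM and CCND1, the G1 cyclin, had 581 and 677 TPM. IER3 and PHLDA1, both immediate early genes, had 328 and 291 TPM and 180 and 166 TPM. The feedback phosphatases DUSP5 and DUSP6 had 161 TPM in each library and 73.7 and 75.3 TPM. ETV4 and ETV5, ETS factors induced by ERK, had 92.2 and 103 TPM and 84.1 and 96.9 TPM. EPHA4 was the 1 member under 1 TPM in both libraries.

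Of 38 receptor tyrosine kinases 16 were expressed, or 42.1% against 58.4% of all genes. AXL, the receptor for GAS6, was the highest at 422 and 489.6 TPM, more than any value of the next gene. Its ligand GAS6 was also the highest of 28 growth factor ligands, at 98.6 and 111 TPM. EPHA2, an ephrin receptor, had 149 and 166 TPM. MET, the receptor for hepatocyte growth factor, had 74.8 and 121 TPM, and EGFR had 75.9 and 83.7 TPM, so that these 2 overlapped. IGF1R followed with 64.1 and 65.4 TPM. RET, the receptor rearranged in other thyroid carcinomas, had 11 and 25 reads, and NTRK2, FLT3 and ROR2 had no read. ALK had 3 and 8 reads. HGF and IGF1, the ligands of MET and IGF1R, had no read. The EGFR ligand HBEGF had 69.5 and 86.3 TPM and TGFA had 20.9 and 24.2 TPM. FGF23, a phosphate-regulating hormone of bone, was the highest of 22 FGF genes at 65.8 and 103 TPM, above FGF5 (19.4 and 35.4 TPM) and FGF2 (17.2 and 21.9 TPM).

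Several other lists were expressed in full, against 58.4% of all genes. Nearly all proteasome subunits (37 of 39) were expressed as well, so full expression does not set growth pathways apart. All 18 genes of PI3K, AKT and mTOR signaling were expressed. All 16 Hippo genes were expressed, led by the YAP targets CCN1 (821 and 706 TPM) and CCN2 (342 and 281 TPM). All 20 proliferation genes stood at 10 TPM or more, with a median of 207 TPM, and PCNA, the replication clamp, had 712 and 842 TPM. Of 9 genes of the MYC family and telomerase 6 were expressed (66.7%). MYC had 52.1 and 55.1 TPM, and MYCN had no read. TERT, the catalytic subunit of telomerase, had 75 and 73 reads and straddled the threshold at 0.880 and 1.01 TPM. The ubiquitin ligase MDM2 had 47.8 and 60.9 TPM, and the CDK inhibitor CDKN1A had 15.3 and 23.9 TPM. All 17 genes for mismatch and DNA break repair were expressed, and 26 of 27 chromatin regulators were, with SMARCA4 at 46.4 and 54.8 TPM. Among BCL2 family members BCL2L1 (190 and 214 TPM) and MCL1 (143 and 195 TPM) were far above BCL2 itself (5.17 and 6.57 TPM). Of 27 genes of glycolysis and lactate 21 were expressed (77.8%). LDHA and LDHB, the 2 lactate dehydrogenase chains, had 723 and 847 TPM and 814 and 924 TPM. Their ranges overlapped, but LDHB was the higher within each replicate.

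Of the WNT, NOTCH, and TGF-beta and BMP lists, 16 of 24 (66.7%), 9 of 14 (64.3%) and 18 of 25 genes (72.0%) were expressed, against 58.4% of all. FZD6, a WNT receptor, had 123 and 113 TPM and CTNNB1, which encodes beta-catenin, had 94.8 and 95.9 TPM. AXIN2, LGR5 and RNF43, genes switched on by beta-catenin in many tissues, had at most 25 reads in a library. NOTCH2 led its list at 68.7 and 66.1 TPM. ID1, a BMP target, had 164 and 162 TPM, while ID2 had 5 and 13 reads.

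The study concerns RNA editing. Of 11 genes on the list of editing enzymes and CDK13 with its partners, 7 were expressed (63.6%, near the 58.4% of all genes). ADAR, which encodes ADAR1, had 10015 reads in replicate 1 and 11472 in replicate 2, or 56.8 and 76.7 TPM. ADARB1, which encodes ADAR2, had 6.86 and 5.73 TPM, and ADARB2 had 1 and 4 reads. CDK13, a transcriptional kinase, had 8.46 and 10.7 TPM. Its paralog CDK12 had 59.7 and 72.5 TPM, and their partner cyclin CCNK had 13.6 and 16.8 TPM, with 59.5% of its exon bases shared with a gene on the other strand. APOBEC3C, a cytidine deaminase, had 22.0 and 31.3 TPM and APOBEC3B had 1.80 and 1.04 TPM. APOBEC1 and ADAD2 had no read, and ADAD1 had 1 and 0 reads.

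At the cell surface the highest of 38 antigens were CD59, an inhibitor of complement, at 315 and 447 TPM and CD63, a tetraspanin of endosomes and exosomes, at 353 and 393 TPM. BSG, also called basigin or CD147, had 273 and 291 TPM. NT5E, the ecto-enzyme CD73 that makes adenosine, had 258 and 241 TPM. Of the list 25 genes were expressed (65.8%, against 58.4% of all genes). The checkpoint ligands CD274 (PD-L1), CD276 and PDCD1LG2 had 43.7 and 52.0 TPM, 41.9 and 53.04 TPM and 13.2 and 18.9 TPM. CD47, the signal against phagocytosis, had 32.8 and 43.1 TPM. ICAM1 differed between the libraries, with 1323 and 2916 reads (26.6 and 69.2 TPM). Several antibody targets were scarce: FOLR1 and PROM1 had no read, MSLN had 4 and 10 reads, CD70 had 4 and 5 and NECTIN4 had 13 and 10.

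Of 26 integrins 11 were expressed (42.3%, against 58.4% of all genes). ITGB1, the common beta chain, had 368 and 375 TPM, ITGA3, a laminin receptor chain, had 205.1 and 255 TPM, ITGB5 had 116 and 107 TPM and ITGA5 had 77.2 and 80.9 TPM. ITGA4 and ITGA9 were at the floor. Of 23 cadherins 3 were expressed (13.0%), namely CDH2, CDH24 and CDH20. Of 36 G protein-coupled and cytokine receptors 21 were expressed (58.3%, near the 58.4% of all genes). They were led by TNFRSF12A, the receptor for TWEAK, at 289 and 314 TPM and IL13RA1 at 92.2 and 98.6 TPM. MMP14, a membrane-bound matrix protease, had 270 and 277 TPM and was the 1 matrix metalloproteinase of 23 above 10 TPM. Of class I antigen presentation, B2M had 374 and 428 TPM, while the class II genes HLA-DPA1 and HLA-DRA were at the floor.

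**Figure D3:**
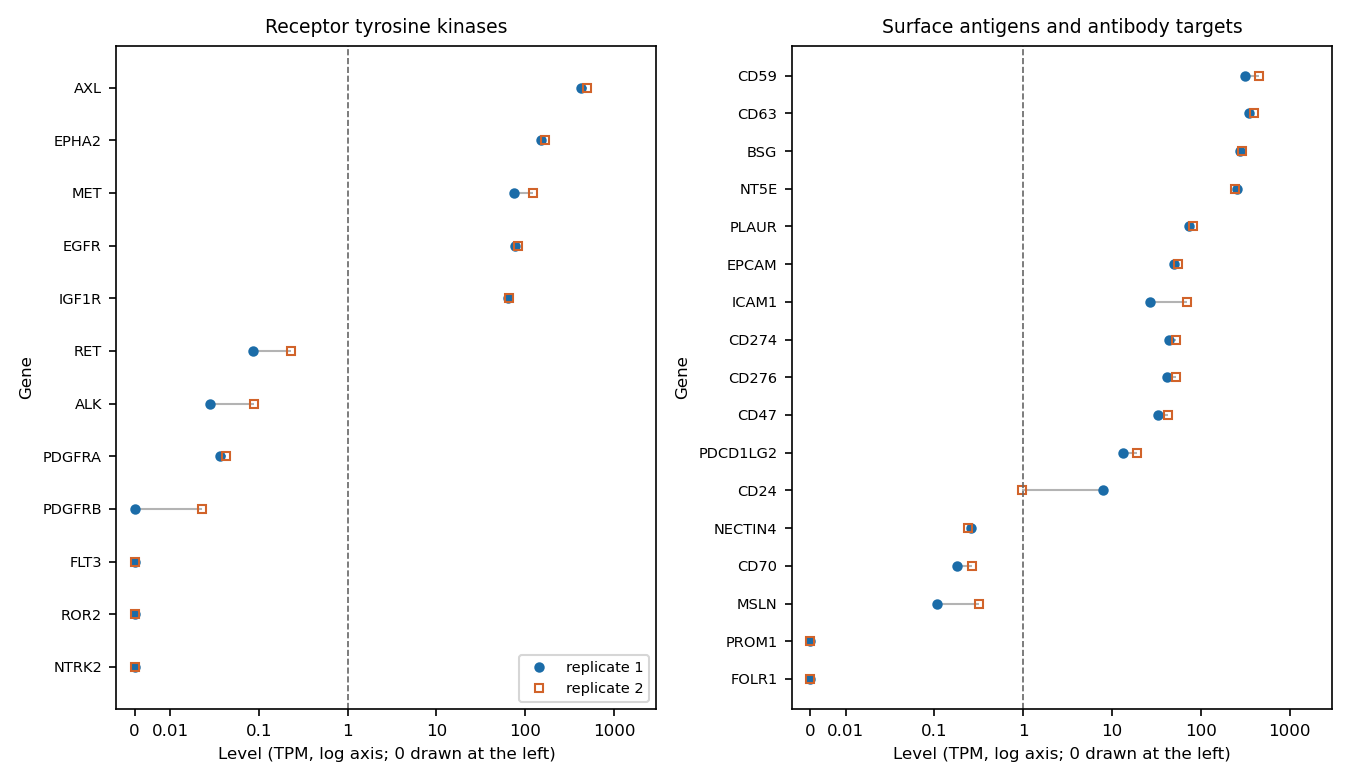
Level in TPM (log axis, 0 drawn at the left) of the receptor tyrosine kinases and surface antigens named in the text in siControl replicate 1 (filled circles) and replicate 2 (open squares), with a dashed line at 1 TPM. AXL at 422 and 489.6 TPM leads the receptors, and most genes lie at nearly the same level in both replicates, with CD24 as an exception that lies lower in replicate 2.

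The cell cycle inhibitors CDKN2A and CDKN2B, neighbours on the short arm of chromosome 9, had 0 reads in both libraries. CDKN2A encodes p16INK4A and p14ARF and CDKN2B encodes p15INK4B, brakes on CDK4 and CDK6 and on MDM2. Both CDKN2A at chr9:21967752-21995301 and CDKN2B at chr9:22002903-22009305 are on the minus strand. The next protein-coding gene on the centromeric side, DMRTA1, had 75 and 73 reads (0.932 and 1.07 TPM), and the next on the telomeric side, MTAP, an enzyme of methionine salvage, had 465 and 597 reads (2.22 and 3.36 TPM). The antisense lncRNA CDKN2B-AS1, which overlaps the pair, had 19 and 14 reads, and CDKN2A-DT, just beside CDKN2A, had 1 read in each. Further out KLHL9 had 28.9 and 35.2 TPM, IFNE had 2.64 and 4.27 TPM, MLLT3 had 2.68 and 3.19 TPM, ELAVL2 had 18.1 and 22.0 TPM and TUSC1 had 53.2 and 61.0 TPM. IFNB1 had 0 and 3 reads. The other inhibitors were expressed: CDKN2C had 41.8 and 40.6 TPM, CDKN1B had 17.1 and 15.4 TPM and CDKN2D had 11.8 and 14.8 TPM. Their target CDK4 had 248 and 326 TPM, with 44.2% of its exon bases shared with genes on the other strand, and RB1 had 72.8 and 77.6 TPM.

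The bases before the RefSeq starts of both genes without a read are shown in the same way (GRCh38.p14, bases -30 to -1, CpG in capitals). CDKN2A has other starts that were not examined.
CDKN2A at chr9:21995325-21995354, minus strand: CGggggaagaggaaagaggaagaagCGctc
CDKN2B at chr9:22009306-22009335, minus strand: aaaaCGgaattctttgcCGgctggctcccc
Their 300-base windows held 28 and 25 CpG.

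Some silent genes belonged to families that were mostly at the floor, and some lay in runs along chromosomes. Of 411 olfactory receptor genes 315 were at the floor, against 20.6% of all genes, and so were 93 of 94 keratin-associated proteins of hair, 30 of 30 genes of the skin envelope (LCE and SPRR), 40 of 42 defensins and 23 of 23 PRAME family genes. Where such families hold near-identical copies, their counts at the floor are uncertain, since the treatment of multi-mapped reads is not known. There were 24 runs of 10 or more neighbouring protein-coding genes at the floor, with 370 of the 4070 floor genes. With 0 reads as the rule there were 13 such runs with 203 genes. Several of the longest runs hold genes of these families, so the counts by family and by run overlap. How many runs would arise if silent genes were spread evenly was not examined. The longest run had 35 genes over 873 kb at chr21:30165565-31038476, from CLDN17 to KRTAP19-8. The next had 26 genes at chr17:41065116-41369813, from KRTAP2-4 to KRT33B, within the hair keratin cluster. A run of 24 genes at chr1:152409243-152885047, from CRNN to SMCP, covers genes of the epidermal envelope. Runs of 22 and 18 genes lie on chromosome 8 between DEFB1 and USP17L3 and hold defensin genes, and the remaining runs had at most 17 genes, among them 1 of 17 genes on chromosome 21 from TSPEAR to KRTAP10-12. Of 35 genes of the MAGE family, cancer-testis antigens and their relatives, 22 were at the floor, against 20.6% of all genes. Of the same 35 genes 6 were expressed (17.1%, against 58.4% of all genes). Of 89 other cancer-testis genes 80 were at the floor, some of them PRAME family genes counted above. TEX15, a gene of male meiosis, was an exception with 4628 and 4646 reads (27.1 and 32.0 TPM).

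Silent and expressed genes differed in the base composition of their promoters. RefSeq gave a promoter of 300 bases for 15264 of the 19751 protein-coding genes. The share with 10 or more CpG was 31.7% for genes without a read, 56.0% for genes with over 3 reads but under 1 TPM, 93.4% at 10 to 100 TPM and 97.7% at 1000 TPM and over, against 73.6% of all promoters. The median promoter had 4 CpG in genes without a read and 27 at 10 to 100 TPM. The match was not complete, since 322 genes without a read had 20 or more CpG, among them HOXA13, WNT2, KL and HES5, 4 genes named after their values were seen.

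The letters TATAAA on the strand of the gene, searched for between bases -45 and -16, followed another course. They were found in 11.1% of promoters of genes without a read, in 0.868% at 10 to 100 TPM, in 2.97% at 100 to 1000 TPM and in 11.4% (5 of 44) at 1000 TPM and over, against 3.73% of all promoters. The last share rests on 5 genes. The windows of 4 abundant genes with these letters are shown (GRCh38.p14, bases -45 to -16, TATAAA in capitals), of which 3 are above 1000 TPM in both libraries.
MT2A at chr16:56608539-56608568, plus strand: cccggctctttctagcTATAAAcactgctt
EEF2 at chr19:3985479-3985508, minus strand: caaccggcgtccgccTATAAAaagctgagt
RPLP0 at chr12:120201127-120201156, minus strand: tggctactttgttcgcatTATAAAaggcac
CCN2 at chr6:131951388-131951417, minus strand: gccgcccggagcgTATAAAagcctcgggcc
EEF2, an elongation factor, had 1796 and 2056 TPM, and RPLP0, a ribosomal stalk protein, had 1006 and 1056 TPM. A match of letters is a description of the sequence and does not show that a factor binds there.

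**Figure D4:**
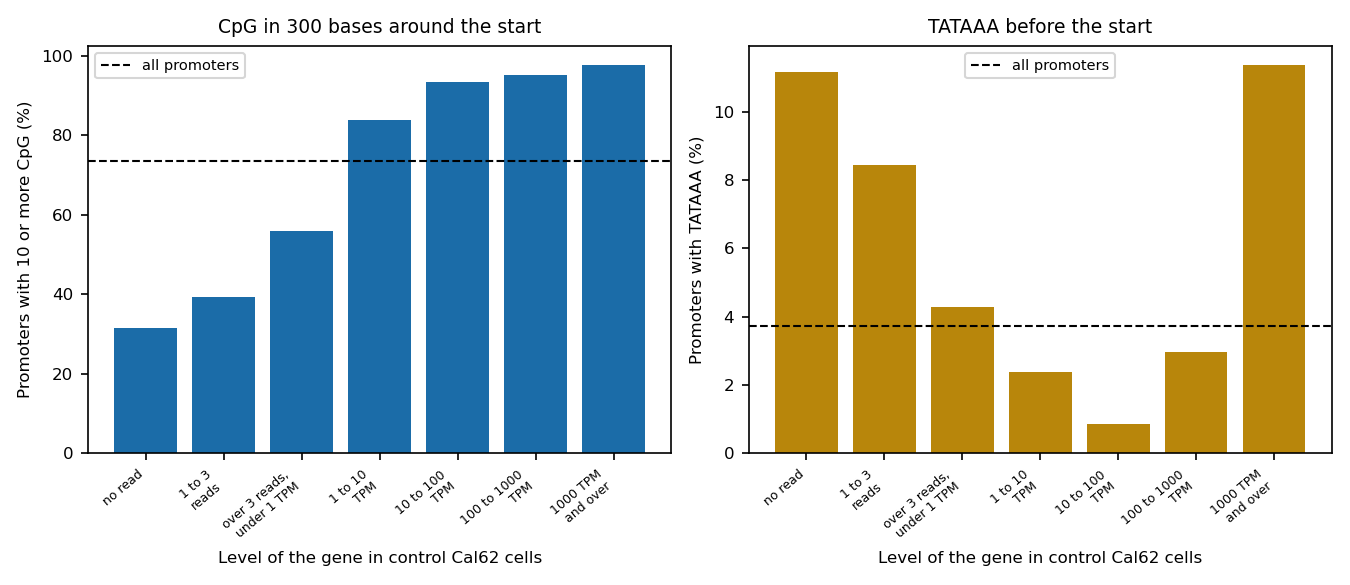
Share of promoters, in percent, with 10 or more CpG in 300 bases (left) and with TATAAA at bases -45 to -16 (right), by level of the gene in siControl cells, with the share of all promoters as a dashed line. The CpG share goes from 31.7% to 97.7% from left to right, and the TATAAA share is lowest, at 0.868%, at 10 to 100 TPM.

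The replicates agreed closely for most expressed genes and differed in a few gene groups. Over 11526 expressed genes the log2 normalized counts were correlated between replicates at 0.991 (Pearson) and 0.993 (Spearman), which are correlations across genes and not across independent samples. The SD of the log2 difference was 0.277, and it was 0.402 for genes of 1 to 10 TPM and 0.156 for those of 100 to 1000 TPM. The median gene was 0.11 lower in replicate 2 on the log2 scale, and differences are given relative to it. Over 1.5-fold higher in replicate 2 were 264 genes (2.29% of those expressed) and over 1.5-fold lower were 210 (1.82%). Without this centring the split was 170 higher and 367 lower. The differences were larger than counting error: the median squared deviation was 6.22 in units of the counting variance, where counting alone gives 0.455, so the columns were not 1 library deposited more than once.

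Some interferon-stimulated genes were higher in replicate 2. Of 20 expressed genes of interferon and antigen presentation, 6 were over 1.5-fold higher and 0 were lower, against 2.29% and 1.82% of all. IFIT1, an interferon-induced RNA sensor, had 269 and 1228 reads (4.05 and 21.8 TPM). IFI44 had 135 and 700 reads, IFI6 had 167 and 718, and ISG15, a ubiquitin-like modifier, had 171 and 519. IRF9, a subunit of the factor that relays type I interferon, had 532 and 1219 reads, and IRF7 had 422 and 898. IFNB1 itself had 0 and 3 reads. HLA-B and B2M were not among them and differed by less than 1.5-fold. Of 16 expressed genes of NF-kappaB and cytokines 7 were higher in replicate 2 and 0 lower. The chemokines CXCL1 and CXCL2 had 148 and 419 reads and 113 and 253 reads, and ICAM1 showed the same direction. KRTAP2-3, with 698 and 1732 reads, was also among the 10 genes most in excess in replicate 2 and belongs to a family of near-identical copies.

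Of 34 expressed canonical histone genes 19 were over 1.5-fold lower in replicate 2, against 1.82% of all. H1-2, a linker histone, had 1938 and 933 reads and H2BC12 had 4354 and 2374 reads. Most canonical histone messages carry no poly(A) tail. Of other RNAs without a long tail and transcripts that match ribosomal RNA, 7 were picked for examination rather than the whole class. MALAT1, with 62438 and 60894 reads, was not among them. All 7 were lower in replicate 2 relative to the median gene, by up to 6.69-fold. The least difference was that of MT-RNR2, the more abundant mitochondrial ribosomal RNA, with 264432 and 174630 reads (lower by 0.59 on the log2 scale), while MT-RNR1 was lower by 2.72-fold. RNU1-1 of the spliceosome was lower by 6.69-fold, ENSG00000283907 by 4.97-fold, ENSG00000280800 by 2.82-fold and RNA5-8SN2 by 2.46-fold. RN7SK was lower by 2.47-fold, but 100% of its exon bases are shared with another gene of the same strand. The part of poly(A) selection in these differences was not tested. ATP6V1G2-DDX39B had the largest excess in replicate 1 among genes of 10 TPM or more, with 1707 and 193 reads, and is a readthrough gene whose exon bases are shared in full with others. DHRS3, a retinal reductase, had 893 and 339 reads, COL4A1, a chain of basement membrane collagen, had 25693 and 13385, and PDGFB had 1591 and 851. H2AC13, H3C10, BIK, APLN and KRT80 complete that group.

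A further set held genes of low level. Of 4597 protein-coding genes under 10 TPM in mean with 30 or more normalized counts in a library, 102 (2.22%) were over 3-fold lower in replicate 2 and 65 (1.41%) over 3-fold higher. These were examined, and the genes below chosen, after the values were seen. Among 10 low-level genes of the epithelial list 4 were lower in replicate 2 and 0 higher, namely GRHL2 (47 and 3 reads), CLDN7 (68 and 9), KRT5 (41 and 5) and CDH1 (193 and 39). The same direction was seen for IGFBP5, a binding protein of insulin-like growth factors, with 1071 and 42 reads. CD24, an epithelial surface glycoprotein, had 351 and 37 reads, ELF3, an epithelial ETS factor, had 141 and 15, S100A9 had 137 and 8 and LCN2 had 99 and 5. MAGEA3 had 57 and 2 reads and TG, as given above, 31 and 0. Of the 15 expressed members of the epithelial list, by contrast, 2 were over 1.5-fold higher in replicate 2 and 0 lower, and the abundant keratins KRT18 and KRT8 differed by less than 1.5-fold. Where these reads came from was not tested, so the presence of CDH1, CD24 and TG in this profile rests mainly on replicate 1. Higher in replicate 2 were the interferon-induced OAS1 (29 and 279 reads), OAS2 (69 and 668), IFI44L (71 and 478) and USP18 (19 and 150), and CXCL8 (53 and 261).

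**Figure D5:**
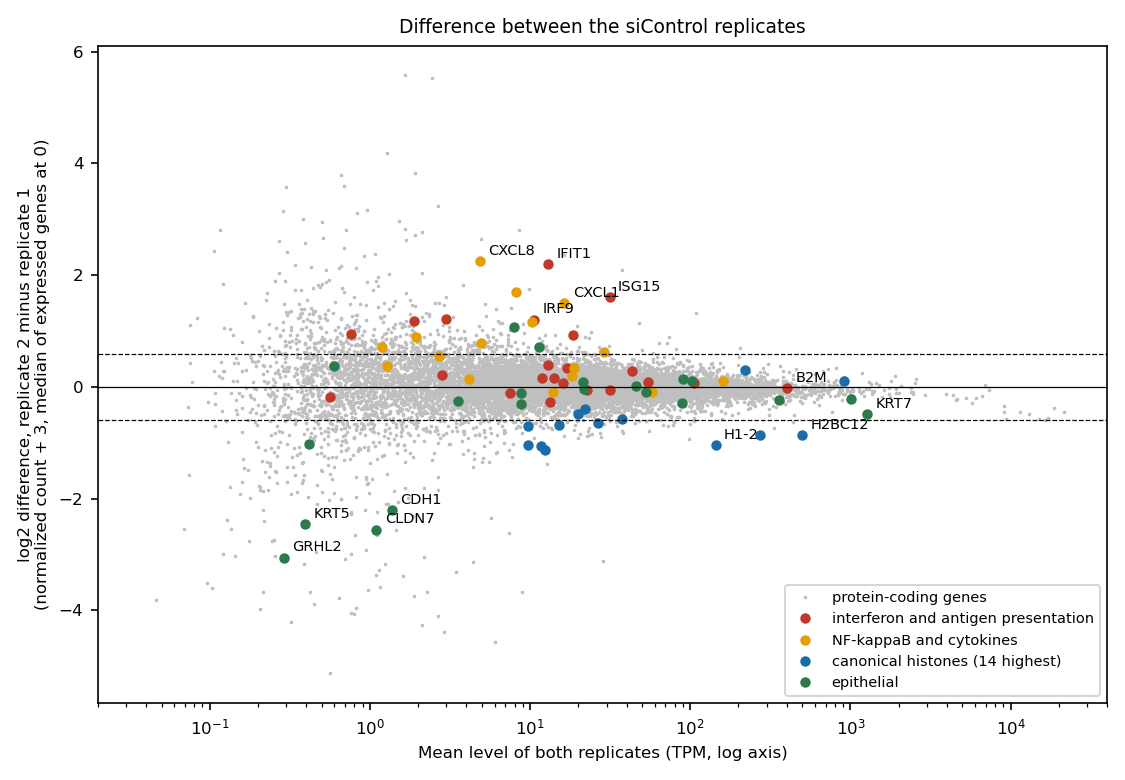
Log2 difference between replicate 2 and replicate 1 (normalized count plus 3, median of expressed genes at 0) against mean level in TPM (log axis) for protein-coding genes with 30 or more normalized counts in a library, with dashed lines at 1.5-fold. IFIT1 and CXCL8 lie above the upper line and H1-2 and CDH1 under the lower line, as do some but not all members of their groups. Of the canonical histones only the most abundant are marked. Without the added 3, 6 of 20 expressed interferon genes were over 1.5-fold higher in replicate 2. By the same measure 19 of 34 expressed histone genes were over 1.5-fold lower.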

How the data were processed

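The authors isolated RNA with the mirVana kit, made poly(A)+ libraries with the KAPA mRNA HyperPrep kit, and sequenced 75-bp paired-end reads on a NextSeq 500. Within bcbio-nextgen, Atropos served the authors for adapter trimming, featureCounts for counting and Salmon for transcript estimates, and normalization in DESeq2 gave preference to Salmon gene estimates brought in with Tximport. The labels also name FastQC and GRCh38. The recovered whole counts may thus be rounded Salmon estimates. Strand setting and treatment of multi-mapped reads are not given in the sources used here, so levels of near-identical copies (ribosomal proteins, actins, tubulins, histones, MAGE genes) and of overlapping genes are uncertain.

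In the deposited table the unit is log2, from a variance-stabilizing transformation of normalized counts by the authors. Its inverse gave whole reads for 100% of the values of both siControl columns, within a tolerance of 0.1, and simulated reads were recovered at 100%. The 4 columns of ADAR1 knockdown were left out. Symbols, positions and exon lengths came from GENCODE release 44 for 57830 of 58333 genes, and 503 had none (0.123% and 0.133% of reads). Genes of the Y chromosome were left out. TPM covers all annotated genes. Shares of reads have 95% binomial intervals (Wilson score) of at most ± 0.00625 percentage points. Intervals and floors cover counting error only, not the assignment of shared reads. Promoters are those of RefSeq (GRCh38.p14). Ribosomal matches used blastn 2.17.0. Tables were made with Python 3.11.15, numpy 2.4.6, pandas 2.3.3, scipy 1.17.1 and matplotlib 3.10.9.

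The libraries, the 37 gene lists and the 26 families were chosen with earlier results of these data known. The text names the 30 genes highest in TPM or their groups, the 10 with most reads, the highest and the silent members of lists, members of the lists on thyroid, RNA editing and chromosome 9, the largest differences between replicates, and others where it says so. Some genes that these rules name are not reported here. No test was run, since 1 group of 2 replicates allows none. The alternatives were other thresholds, other gene lengths, shares of reads without length, other scalings and leaving out a replicate.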

Additional observations from a re-analysis of the deposited data

How the results depend on the processing

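The number of expressed genes ranged from 9469 at 5 TPM to 12313 at 0.5 TPM, and was 11669 to 11913 when either replicate was left out. Genes counted as silent numbered 2661 with no read, 4070 with at most 3 reads in each library and 4412 under 0.1 TPM, and 3156 to 3288 from a single replicate. The 100 highest genes held 39.4% of TPM, 35.2% to 43.6% in single replicates, 20.1% of reads without length scaling and 27.7% without mitochondrial genes. Without centring, 537 expressed genes were over 1.5-fold apart, against 3709 with no filter on low values, 137 at 10 TPM or more and 474 after centring, an alternative chosen after seeing the data. The longest silent run had 35 genes under either definition. Of the lists, 8 lost over 1.5-fold of their expressed members at 5 TPM, among them thyroid hormone synthesis (1 left) and NF-kappaB and cytokines (8 left). Cadherins had 5 expressed members from replicate 1 alone. No paired analysis was possible because 1 group was described and its values come from no test. The 2 replicates limit precision more than depth does for abundant genes, since their differences exceeded counting error, while for genes of a few reads a difference was not detectable at this depth.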
